A study of Mus musculus with 10 samples.

Results

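The genes described here are the constant regions of mouse antibodies, which set the isotype of an immunoglobulin. There are 10 of them among the 33643 gene identifiers of the expression files, 8 heavy chain genes (Ighm, Ighd, Ighg3, Ighg1, Ighg2b, Ighg2c, Ighe and Igha) and 2 light chain genes (Igkc and Iglc2). They were taken by name, by matching Ensembl identifiers to gene symbols, and all 10 were found. The choice of these genes was made with earlier results of these data known. The files list 335 immunoglobulin genes in all, most of them variable segments.

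The values are bulk RNA-seq of tumor-draining lymph nodes (TDLNs). All mice were female BALB/c mice of 6 weeks carrying a 4T1 tumor, a transplanted mammary carcinoma of the same strain, and all received microwave ablation (MWA), which heats and destroys the tumor, on day 10. From that day the MWA+2DG group received 2-deoxyglucose (2DG), a glucose analog that blocks glycolysis, at 500 mg/kg every 2 days into the peritoneum, and the MWA+PBS group, which the labels call MWA, received the saline buffer PBS on the same schedule. TDLNs were taken on day 15, with 5 libraries per group and 1 library per mouse, so that there was no group without ablation and no tumor-free group to set these values against. The comparison asks how blocking glycolysis after ablation changed the nodes, here read through their antibody transcripts.

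Naive B cells make IgM and IgD together, by splicing 1 primary transcript onto Ighm or Ighd. After activation, class switch recombination cuts and rejoins the heavy chain locus and so joins the same variable region to a gene further down, for one of the IgG subclasses, IgE or IgA. Cytokines steer the choice: interleukin 4 towards IgG1 and IgE, interferon gamma towards the IgG2a and IgG2c class, transforming growth factor beta towards IgG2b and IgA. Each switch is preceded by a germline transcript of the target gene that encodes no antibody, and each gene has a membrane form, carried by B cells, and a secreted form, made in far larger amounts by plasma cells. A gene-level value adds all of these forms. In a bulk sample, fewer cells of a type and less RNA per cell cannot be told apart.

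Values are FPKM, fragments per kilobase of transcript scaled to the mapped fragments of the library, as deposited. The libraries listed 24327 to 25226 genes above 0. FPKM carries no counts, so sequencing depth and counting error are unknown. A group difference is a log2 fold change of MWA+2DG over MWA+PBS on log2(FPKM + 1), fitted with limma over the 13334 genes whose mean reached 1 FPKM. The study's rule for a changed gene, an unadjusted P below 0.05 with a log fold change beyond 0.25, is used for the calls below. With Benjamini-Hochberg adjustment over all 13334 genes, limma called 0 genes at an adjusted p below 0.05, the lowest adjusted p being 0.995, while 567 genes (4.25%) had an unadjusted P below 0.05. Every call below is therefore an unadjusted one, and the adjusted p was 0.995 for each of the 10 genes. For a single gene the two-sided exact permutation test of its log2 values over the 10 libraries is given as exact p, and limma's unadjusted P only where the rule made a call.

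The libraries fell into sets by their liver transcripts, in a way the groups did not explain. Alb, the serum albumin of hepatocytes, was listed at 0 to 0.0486 FPKM in replicates 1 and 2 of both groups and at 35.1 to 102 FPKM in replicates 3 to 5 of both. The 11 liver genes found summed to 31.2 to 36.2 FPKM in the first set and 99.7 to 229 FPKM in the second. The labels give no batch, so differences between the groups are also given within each set beside many of the results. Not every result whose size or direction turned between the sets carries them, so a result without them may not be stable across the sets. Replicates 1 and 2 alone leave 2 libraries per group. These within-set values were added after the data were seen. The expected cells of a lymph node were present, with all 11 B cell markers detected and summing to 1683 to 1875 FPKM in the MWA+PBS group and 1550.1 to 1772 FPKM in the MWA+2DG group.

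The heavy chain genes lie in 1 row on chromosome 12, and the 4 IgG genes are close copies of each other, so their sequences bear on whether reads can tell them apart. In the GENCODE annotation of GRCm38, all on the minus strand and in the order of transcription, Ighm lies at chr12:113418558-113422730, Ighd at chr12:113406604-113416324, Ighg3 at chr12:113356224-113361232, Ighg1 at chr12:113325240-113330523, Ighg2b at chr12:113302965-113307933, Ighg2c at chr12:113285325-113288932, Ighe at chr12:113269260-113273248 and Igha at chr12:113254830-113260236. The first 120 bases of the exon that encodes the first constant domain (CH1) of the IgG genes are shown 5′ to 3′ as transcribed, with capitals at the 39 positions where at least 1 of the 4 genes differs.
Ighg3 (chr12:113361113-113361232): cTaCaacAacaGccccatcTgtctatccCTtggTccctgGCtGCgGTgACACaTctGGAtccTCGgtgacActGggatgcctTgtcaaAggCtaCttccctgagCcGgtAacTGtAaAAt
Ighg1 (chr12:113330404-113330523): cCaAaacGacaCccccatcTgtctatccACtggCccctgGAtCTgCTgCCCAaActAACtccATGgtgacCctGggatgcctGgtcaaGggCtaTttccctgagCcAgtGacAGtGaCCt
Ighg2b (chr12:113307814-113307933): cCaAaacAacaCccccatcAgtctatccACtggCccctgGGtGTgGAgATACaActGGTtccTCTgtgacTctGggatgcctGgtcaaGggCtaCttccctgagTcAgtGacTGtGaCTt
Ighg2c (chr12:113288813-113288932): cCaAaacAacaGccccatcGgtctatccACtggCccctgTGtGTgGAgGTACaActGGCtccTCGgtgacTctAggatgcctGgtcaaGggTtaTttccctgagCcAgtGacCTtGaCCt

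Over the whole CH1 exon of 291 bases, pairs of these genes were 78.4% to 88.3% identical, with Ighg3 the most distant. The hinge, the flexible stretch between the arms and the stem of the antibody, differs in length and is a single small exon in each gene, shown whole and in lower case since nothing in it is marked.
Ighg3 hinge (chr12:113360529-113360576): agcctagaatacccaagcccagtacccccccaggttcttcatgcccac
Ighg1 hinge (chr12:113329844-113329882): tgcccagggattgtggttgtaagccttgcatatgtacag
Ighg2b hinge (chr12:113307261-113307326): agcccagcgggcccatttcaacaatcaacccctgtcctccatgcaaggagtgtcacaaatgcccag
Ighg2c hinge (chr12:113288263-113288325): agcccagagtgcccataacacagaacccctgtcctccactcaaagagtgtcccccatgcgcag

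The hinge exons were 48, 39, 66 and 63 bases long in that order. Among the annotated transcripts of the 10 genes with Iglc1 and Iglc3, no stretch of 150 bases, the length of a read, was shared exactly by transcripts of different genes. The longest exact run shared by different genes was 88 bases, between Ighg2b and Ighg3, and for Ighm it was 15 bases. Reads can thus be assigned by sequence where they match the reference, but the reference is of C57BL/6 and carries Ighg2c, whereas BALB/c mice carry Ighg2a in its place. The values listed for Ighg2c are therefore reads that were assigned to the reference gene and are uncertain as a measure of the BALB/c gene, and reads of the BALB/c gene may also have gone to its neighbors. The treatment of reads that match several genes is not given in the sources of these values.

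Of the 10 constant region genes, 3 were called lower in the MWA+2DG group by the study's rule, Ighm, Ighg2b and Ighg3, and 0 were called higher. Among all 13334 genes tested the rule called 1.87% lower and 0.952% higher, 2.82% in all, which were 249 and 127 genes. Rescaling each library to the same total turned these counts to 159 and 328, and to 202 and 180 with immunoglobulin genes left out of the total, with Ighm and Ighg2b called lower both times and Ighg3 the first time only. The differences were negative for 8 of the 10 genes, with a median log2 fold change of -0.51 against 0.01 over all genes. One gene, Ighm, had no overlap between the groups, being lower in every MWA+2DG library, where 0.51% of all genes tested were lower without overlap and 0.292% higher, 0.802% in all. The plot of the 10 genes by library shows that the IgG genes and Igkc varied far more between mice than Ighm, Ighd and Iglc2 did.

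**Figure D1:**
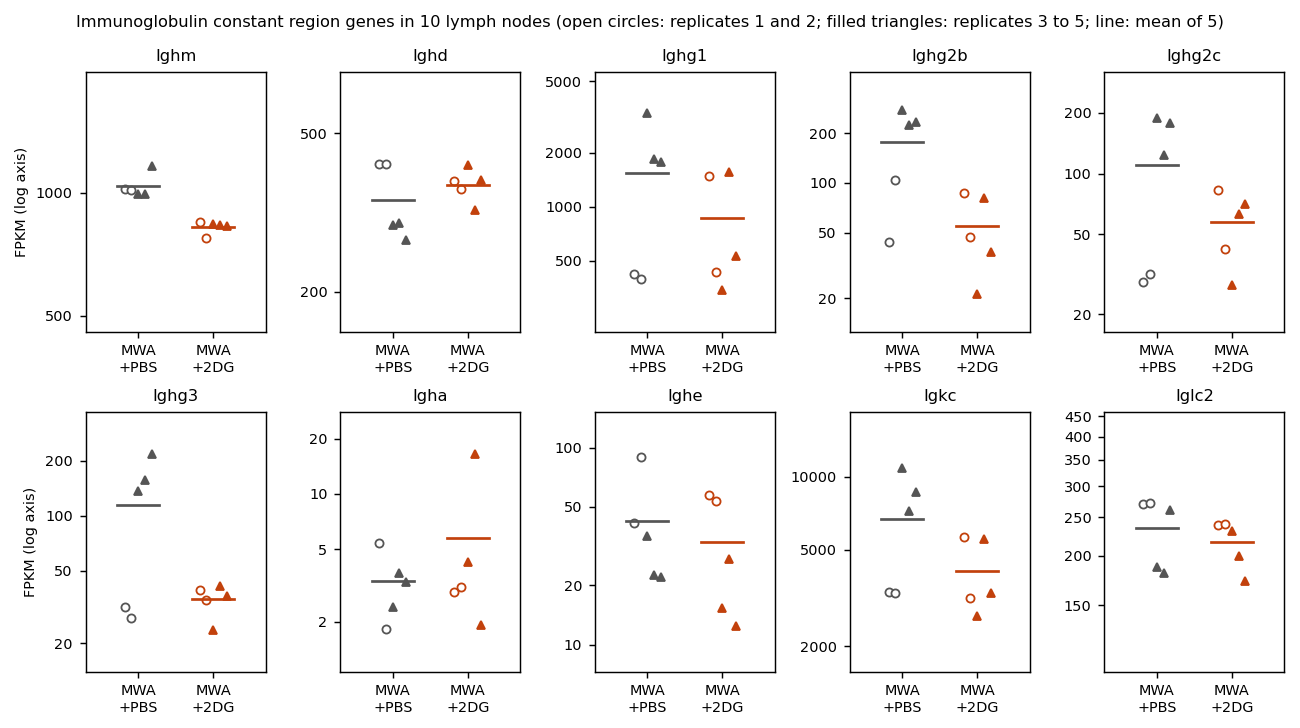
FPKM of the 10 immunoglobulin constant region genes in each library, on log axes whose range differs between panels. Ighm was lower in all 5 MWA+2DG libraries (776 to 849 FPKM) than in all 5 MWA+PBS libraries (991 to 1164 FPKM), while for the IgG genes the MWA+PBS replicates 3 to 5 stood above replicates 1 and 2 of their own group.

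By level, the order was Igkc, Ighg1, Ighm, Ighd and Iglc2 in both groups, and Igha, the IgA heavy chain, was last in both, below Ighe in every library, although their ranges overlapped in the MWA+2DG group. Igkc averaged 6667 FPKM under MWA+PBS and 4062 FPKM under MWA+2DG, and it was above Ighg1 in 10 of the 10 libraries, with ranges that overlapped in the MWA+PBS group. Ighg1 and Ighm could not be ranked, since Ighg1 was the higher of them in 3 of 5 MWA+PBS and 2 of 5 MWA+2DG libraries. Ighm was above Ighd with no overlap in either group. Ighg2b, Ighg2c and Ighg3 overlapped one another in both groups.

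Ighm encodes the mu chain of IgM, the first antibody a B cell makes. It was listed at 1024, 1014, 992, 991 and 1164 FPKM in MWA+PBS replicates 1 to 5 and at 849, 776, 836, 833 and 828 FPKM in MWA+2DG replicates 1 to 5. The groups were separate, with a gap between the highest MWA+2DG and the lowest MWA+PBS library. The means were 1037 ± 72.1 FPKM and 824 ± 28.3 FPKM (SD, n = 5 each), and the log2 fold change was -0.33 (SE 0.0667) with an unadjusted limma P of 0.000472, the 5th smallest of the 13334 genes, and an adjusted p = 0.995. The two-sided exact permutation test of Ighm alone gave p = 0.00794, the smallest that 5 libraries against 5 allow. The difference was of the same size in both sets, -0.33 in replicates 1 and 2 and -0.33 in replicates 3 to 5, and leaving out any 1 library left it between -0.34 and -0.29.

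Most of the genes that mark all B cells were not lower to that extent. Cd79a and Cd79b, the signaling chains that carry IgM and the other isotypes on the cell surface, had log2 fold changes of -0.05 (exact p = 0.619) and -0.16 (exact p = 0.159). Ms4a1, which encodes CD20, had one of -0.18 (exact p = 0.127). In replicates 1 and 2 these differences were -0.21 for Cd79a, -0.15 for Cd79b and -0.12 for Ms4a1. In replicates 3 to 5 they were 0.06, -0.17 and -0.22. Of the 11 B cell genes 0 were called in either direction, and 10 of the 11 differences were negative, with a median of -0.07. When Ighm was set against the mean log2 level of Ms4a1, Cd79a and Cd79b in the same library, it stood 1.83 log2 units above them under MWA+PBS (SD 0.0615, n = 5) and 1.63 under MWA+2DG (SD 0.117, n = 5). That difference of -0.20 had a two-sided exact permutation p of 0.0159, and 0.222 after adjustment over the 21 shares, relative levels and ratios tested here. The groups overlapped in this value, with MWA+2DG replicate 1 at 1.79, above MWA+PBS replicate 2 at 1.75. Set against the 15 genes of plasma cells and antibody secretion in place of the B cell genes, the difference for Ighm was -0.02 (exact permutation p = 0.952). That value joins sets that were unlike. The median log2 fold change of the tested genes of that list was 0.05 in replicates 1 and 2 alone and -0.40 in replicates 3 to 5 alone. Ighm itself was at -0.33 in each set, so the value near 0 does not show that Ighm moved with those genes.

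Ighd encodes the delta chain of IgD, carried by naive B cells along with IgM. It was listed at 418, 419, 295, 297 and 270.3 FPKM in the MWA+PBS libraries and at 379, 361, 416, 320.2 and 382 FPKM in the MWA+2DG libraries. The MWA+PBS libraries split into a high pair, replicates 1 and 2, and 3 lower ones, and all 5 MWA+2DG libraries lay within the range of the other group. The log2 fold change was 0.15 (SE 0.137, exact p = 0.381). It was -0.18 (SE 0.0783) in replicates 1 and 2 and 0.37 (SE 0.129) in replicates 3 to 5, and a limma term for the difference between the sets gave 0.54 (SE 0.170, adjusted p = 1.00).

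Since IgM and IgD come from 1 primary transcript in a naive B cell, the ratio of Ighd to Ighm was tested as a value of its own. On the log2 scale it was -1.29, -1.27, -1.75, -1.73 and -2.10 in the MWA+PBS libraries and -1.16, -1.10, -1.005, -1.38 and -1.11 in the MWA+2DG libraries. Of the MWA+2DG libraries 4 stood above every MWA+PBS library, and replicate 4 lay among them. The difference was 0.48 (two-sided exact permutation p = 0.0238, adjusted over the 21 values p = 0.222), with 0.15 in replicates 1 and 2 and 0.70 in replicates 3 to 5. Without MWA+2DG replicate 2, 3 or 5 the exact p was 0.0556.

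**Figure D2:**
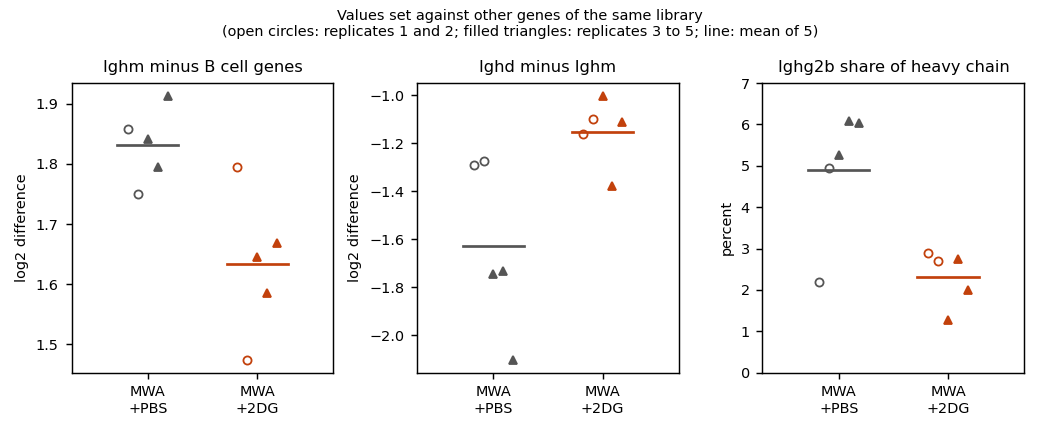
Values of each library set against other genes of the same library. They are the log2 level of Ighm minus the mean of the B cell genes Ms4a1, Cd79a and Cd79b, the log2 level of Ighd minus that of Ighm, and the percent of Ighg2b in the summed FPKM of the 8 heavy chain genes. The MWA+2DG means lie lower at 1.63 against 1.83, higher at -1.15 against -1.63, and lower at 2.32% against 4.91%, and the groups overlap in all 3 panels.

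Among the IgG genes, Ighg2b, the gene of the IgG2b subclass, differed most. Its MWA+PBS libraries held 44.1, 103, 276, 223 and 233 FPKM and its MWA+2DG libraries 86.2, 47.2, 21.3, 81.2 and 38.2 FPKM. The MWA+PBS replicates 2 to 5 were above all 5 MWA+2DG libraries, and replicate 1 lay among them. The means were 176 ± 97.7 and 54.8 ± 28.0 FPKM (SD, n = 5 each), and the log2 fold change was -1.56 (SE 0.528), or a fold of 0.338, with an unadjusted limma P of 0.0131 and an adjusted p = 0.995. The exact permutation test of the gene alone gave p = 0.0397. The difference was -0.08 (SE 0.498) in replicates 1 and 2 and -2.55 (SE 0.423) in replicates 3 to 5.

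Ighg3 encodes IgG3, a subclass prominent in responses that do not need T cells. Under MWA+PBS it was listed at 31.7, 27.4, 136, 158 and 218 FPKM and under MWA+2DG at 39.3, 34.3, 23.7, 41.3 and 36.2 FPKM. The 5 MWA+2DG libraries were close together, and of the MWA+PBS libraries replicates 1 and 2 lay within their range and replicates 3 to 5 far above it. The means were 114 ± 83.0 and 35.0 ± 6.85 FPKM and the log2 fold change was -1.26 (SE 0.545), with an unadjusted limma P of 0.0409 and an adjusted p = 0.995. This call rested on replicates 3 to 5, where the difference was -2.31 (SE 0.248), against 0.31 (SE 0.119) in replicates 1 and 2. The exact permutation test of the gene alone gave p = 0.135, and the call was lost without any 1 of MWA+PBS replicates 3, 4 and 5 or of the 5 MWA+2DG libraries, with limma P values from 0.0523 to 0.107.

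Ighg1, the most abundant IgG transcript, was listed at 422, 399, 3316, 1852 and 1773 FPKM in the MWA+PBS libraries and at 1485, 433, 343, 1560.3 and 535 FPKM in the MWA+2DG libraries. Within each group the highest library held several times the level of the lowest, and the ranges overlapped. The log2 fold change was -0.66 (SE 0.663, exact p = 0.357). It was 0.97 (SE 0.596) in replicates 1 and 2 and -1.75 (SE 0.538) in replicates 3 to 5.

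Reads assigned to Ighg2c stood at 29.0, 31.9, 188, 124 and 179 FPKM under MWA+PBS and at 82.5, 42.1, 27.9, 63.0 and 70.8 FPKM under MWA+2DG. The pattern over libraries was that of Ighg1, with high values in MWA+PBS replicates 3 to 5 and low ones in replicates 1 and 2. The log2 fold change was -0.63 (SE 0.563, exact p = 0.341), with 0.93 (SE 0.329) in replicates 1 and 2 and -1.67 (SE 0.352) in replicates 3 to 5.

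The IgG genes thus differed between the groups in opposite directions or by unequal amounts in the 2 sets. A term for the difference between the sets gave -2.62 for Ighg3 (SE 0.355), -2.60 for Ighg2c (SE 0.574), -2.47 for Ighg2b (SE 0.746), -2.71 for Ighg1 (SE 0.932) and -1.603 for Igkc (SE 0.469), and -0.00 for Ighm (SE 0.144). The unadjusted limma P of this term was below 0.05 for those 4 IgG genes, Igkc and Ighd, 6 of the 10 genes, and for 2.56% of all 13334 genes. Its lowest adjusted p among the 10 genes was 0.282, for Ighg3, and 0 of all genes had an adjusted p below 0.05. In replicates 3 to 5 alone, 7 of the 10 genes were called by the study's rule, Ighm, the 4 IgG genes and Igkc lower and Ighd higher, where 2.89% of all genes were called lower and 1.26% higher. In replicates 1 and 2 alone, 2 of the 10 were called, Ighm lower and Ighg2c higher, where 2.17% were called lower and 2.78% higher. The sets stood further apart in the MWA+PBS group, where Ighg1 was 2.43 log2 units higher in replicates 3 to 5 than in replicates 1 and 2 and Ighg3 2.47 units higher, against -0.28 and -0.16 in the MWA+2DG group. The liver transcripts moved with the sets in both groups, while the IgG genes were high with them in the MWA+PBS group and not in the MWA+2DG group. Whether what set the liver transcripts apart had a part in these results was not tested.

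**Figure D3:**
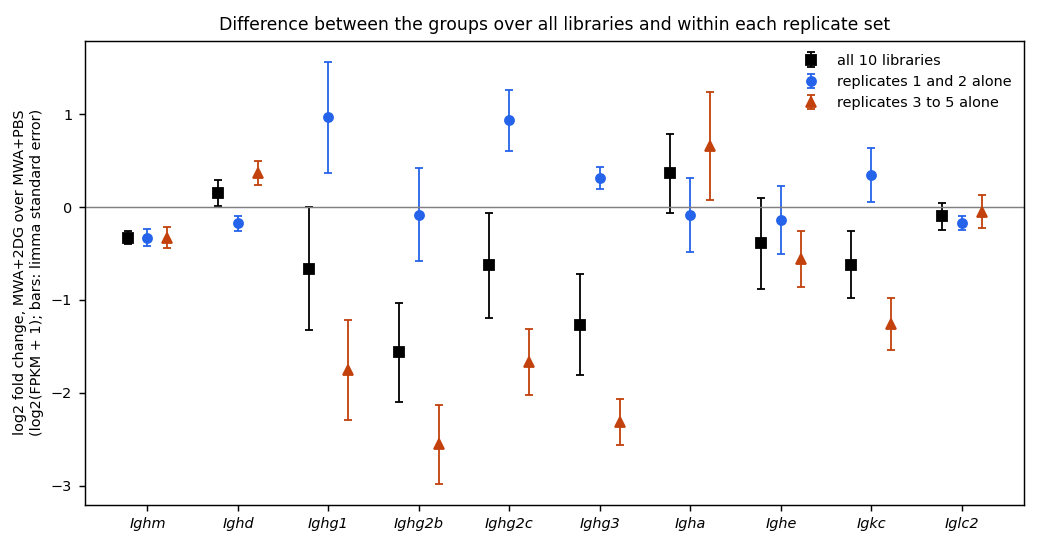
Log2 fold change of MWA+2DG over MWA+PBS on log2(FPKM + 1) for each constant region gene, over all 10 libraries, in replicates 1 and 2 alone and in replicates 3 to 5 alone. Bars are limma standard errors. Ighm had the same value of -0.33 in all 3 fits, while Ighg1, Ighg2c, Ighg3 and Igkc were positive in replicates 1 and 2 and negative in replicates 3 to 5.

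Ighe and Igha are the genes of IgE, the antibody of allergy, and IgA, the antibody of mucosal surfaces. Ighe was listed at 41.7, 89.3, 35.6, 22.6 and 22.0 FPKM in the MWA+PBS libraries and at 57.4, 53.3, 15.3, 27.3 and 12.4 FPKM in the MWA+2DG libraries. In both groups replicates 1 and 2 were the highest, the reverse of the IgG genes in the MWA+PBS group, and the log2 fold change between the groups was -0.39 (SE 0.488, exact p = 0.500). Igha was listed at 5.42, 1.82, 2.40, 3.71 and 3.29 FPKM in the MWA+PBS libraries and at 2.90, 3.11, 4.27, 16.5 and 1.93 FPKM in the MWA+2DG libraries. Apart from MWA+2DG replicate 4 the libraries covered much the same range, and the log2 fold change was 0.36 (SE 0.427, exact p = 0.603).

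The light chain genes pair with every heavy chain isotype. Igkc, the single kappa constant region at chr6:70726435-70726966 on the plus strand of GRCm38, was listed at 3333, 3313.5, 10878, 7193 and 8619 FPKM in the MWA+PBS libraries and at 5643, 3148, 2665, 5531 and 3324 FPKM in the MWA+2DG libraries. Replicates 3 to 5 of the MWA+PBS group were above all other libraries, and the log2 fold change was -0.62 (SE 0.365, exact p = 0.175), with 0.34 (SE 0.290) in replicates 1 and 2 and -1.26 (SE 0.282) in replicates 3 to 5. Igkc followed the summed heavy chains, at 1.58 to 2.23 times their summed FPKM in every library.

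Iglc2, a lambda constant region at chr16:19198396-19200351 on the minus strand, was listed at 270.1, 272, 187, 181 and 261 FPKM in the MWA+PBS libraries and at 239, 239.8, 230.2, 199.96 and 173 FPKM in the MWA+2DG libraries. The groups overlapped over most of their range, and the log2 fold change was -0.10 (SE 0.148, exact p = 0.524). Iglc2 and Iglc3, another lambda gene, shared an exact run of 79 bases and were 94.2% identical over the 120 bases shown here, both on the minus strand, with capitals where they differ.
Iglc2 (chr16:19198733-19198852): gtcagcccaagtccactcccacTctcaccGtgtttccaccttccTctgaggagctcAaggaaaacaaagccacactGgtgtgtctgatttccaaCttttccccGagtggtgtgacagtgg
Iglc3 (chr16:19065562-19065681): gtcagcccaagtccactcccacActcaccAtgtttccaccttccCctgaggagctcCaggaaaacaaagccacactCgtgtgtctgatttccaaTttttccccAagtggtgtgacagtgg

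Of the other lambda genes, Iglc3 was at 233 ± 33.2 FPKM under MWA+PBS and 208 ± 29.7 FPKM under MWA+2DG (log2 fold change -0.16, exact p = 0.270). Iglc1 was at 192 ± 69.2 and 156 ± 103 FPKM (log2 fold change -0.44, exact p = 0.349). Iglc4, a lambda gene listed at a mean of 1.22 and 1.80 FPKM, was called higher with 0.36 (SE 0.136). Its unadjusted limma P was 0.0229 and its exact p 0.0556. The call was lost without any 1 of MWA+PBS replicates 3 and 4 and MWA+2DG replicate 2, and within each replicate set alone. The share of Iglc2 in the sum of Igkc and Iglc2 was 4.43% ± 2.87 under MWA+PBS and 5.51% ± 1.93 under MWA+2DG (exact permutation p = 0.492), with a difference of -1.96 percentage points in replicates 1 and 2 and 3.10 in replicates 3 to 5. It was lowest, at 1.69% to 2.94%, in the 3 MWA+PBS libraries with the most Igkc.

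As shares of the summed heavy chain FPKM, Ighm and Ighg1 together made up most of the transcript in each library, and which of them led differed between mice. Ighm held 50.8%, 48.6%, 18.9%, 27.0% and 30.1% in the MWA+PBS libraries and 28.5%, 44.3%, 49.5%, 28.3% and 43.5% in the MWA+2DG libraries. Its share was high where Ighg1 was low, and although its own level was lower in every MWA+2DG library, its mean share was 35.1% ± 14.0 under MWA+PBS and 38.8% ± 9.80 under MWA+2DG (exact permutation p = 0.651). The share of Ighg1 was 39.9% ± 19.3 and 35.2% ± 15.1 (p = 0.706, exact permutation test), and that of Ighd 12.3% ± 7.44 and 17.8% ± 5.79 (p = 0.230, exact permutation test). The differences turned between the sets. In replicates 1 and 2 the share under MWA+2DG differed by -13.3 percentage points for Ighm, -3.72 for Ighd and 17.2 for Ighg1, and in replicates 3 to 5 by 15.1, 11.6 and -19.4.

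Ighg2b was the 1 heavy chain gene whose share had an unadjusted p below 0.05. It held 2.19%, 4.96%, 5.27%, 6.07% and 6.04% in the MWA+PBS libraries and 2.89%, 2.70%, 1.26%, 2.76% and 2.01% in the MWA+2DG libraries. All MWA+PBS libraries except replicate 1 were above the whole MWA+2DG group. The means were 4.91% ± 1.59 and 2.32% ± 0.685 (two-sided exact permutation p = 0.0317, adjusted over the 21 values p = 0.222), and the difference was -0.778 percentage points in replicates 1 and 2 and -3.78 in replicates 3 to 5. The shares of Ighg3 were 3.08% ± 1.85 and 1.598% ± 0.307 (exact permutation p = 0.119), with a difference of 0.197 percentage points in replicates 1 and 2 and -2.61 in replicates 3 to 5. Those of Ighg2c, Ighe and Igha were 2.91% and 2.54%, 1.64% and 1.49%, and 0.118% and 0.238% on average, with exact permutation p between 0.246 and 0.960.

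**Figure D4:**
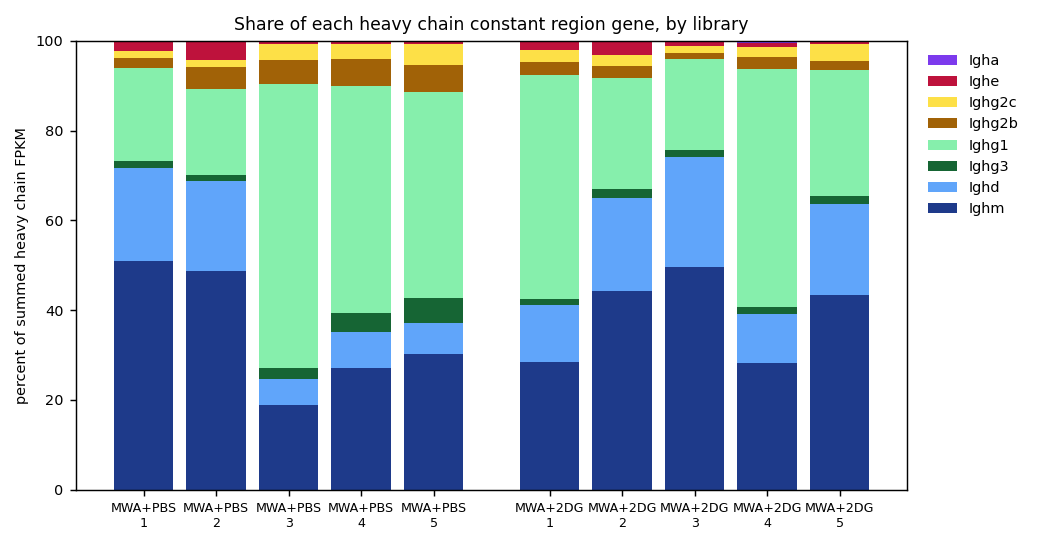
Stacked shares of the 8 heavy chain constant region genes in the summed heavy chain FPKM of each library. The class-switched genes, all but Ighm and Ighd, held between 25.8% and 75.4%, and the 3 highest values are those of MWA+PBS replicates 3 to 5.

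The class-switched genes as a whole, which are given without a test, held 28.5%, 31.3%, 75.4%, 64.9% and 62.9% of the heavy chain FPKM in the MWA+PBS libraries and 58.8%, 35.0%, 25.8%, 60.8% and 36.5% in the MWA+2DG libraries. Both groups contained mice on either side of an even split. Their difference was 17.0 percentage points in replicates 1 and 2 and -26.7 in replicates 3 to 5. Of the summed IgG FPKM, Ighg1 held 71.0% to 84.7% under MWA+PBS and 77.8% to 89.4% under MWA+2DG. Ighg2b held 7.05% to 18.4% and 4.65% to 8.49%, Ighg2c 4.80% to 7.46% and 3.61% to 10.4%, and Ighg3 3.47% to 9.08% and 2.32% to 6.17%. The ratio of Ighg1 to Ighg2c, whose switches are steered by different cytokines, was 3.75 ± 0.315 and 3.71 ± 0.675 on the log2 scale (difference -0.04, exact permutation p = 0.944). Immunoglobulin genes of all kinds made up 3.93%, 4.36%, 12.0%, 9.03% and 8.93% of all FPKM in the MWA+PBS libraries and 7.21%, 3.82%, 3.26%, 6.77% and 4.04% in the MWA+2DG libraries. The difference in this percentage turned between the sets, at 1.37 percentage points in replicates 1 and 2 and -5.30 in replicates 3 to 5. Of the 325 immunoglobulin genes outside the 10 described here, 212 were tested. Of these, 52 were called lower and 1 higher, where 1.87% of all genes tested were called lower and 0.952% higher. Their median difference was -0.62 on the log2 scale. Their calls within each set were not counted.

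Of the genes of plasma cells and antibody secretion, Jchain, the chain that joins IgM and IgA into polymers, was listed at 142, 153, 484, 457 and 479 FPKM in the MWA+PBS group and at 312, 109, 94.0, 265 and 106 FPKM in the MWA+2DG group. Its high libraries, MWA+PBS 3 to 5 and MWA+2DG 1 and 4, were those with the most Ighg1, and its log2 fold change was -0.93 (SE 0.476, exact p = 0.143), with 0.32 in replicates 1 and 2 and -1.77 in replicates 3 to 5. Xbp1, a transcription factor that expands the secretory apparatus, and Mzb1, a helper of antibody assembly, were called lower. Their log2 fold changes were -0.39 and -0.50, with unadjusted limma P values of 0.0287 and 0.0321 and exact p of 0.0714 and 0.0635. In replicates 1 and 2 these differences were 0.0760 for Xbp1 and -0.0949 for Mzb1, and in replicates 3 to 5 they were -0.70 and -0.78. Of the 15 genes of this list 14 were tested, 4 were called lower and 0 higher, with a median of -0.22. Among all genes tested 1.87% were called lower. The count of the list was 1 in replicates 1 and 2 alone, where 2.17% of all genes were called lower. The count was 7 in replicates 3 to 5 alone, where 2.89% of all genes were. When 1 library at a time was left out, it fell to 1 on removal of MWA+PBS replicate 3, MWA+PBS replicate 4, MWA+2DG replicate 3 or MWA+2DG replicate 5 and to 2 on removal of MWA+PBS replicate 5, and it was 7 on removal of MWA+PBS replicate 1. Over all genes the rule called 176 to 315 lower in the fits without 1 library. The list summed to 629 to 1220 FPKM in the MWA+PBS group and 538 to 848 FPKM in the MWA+2DG group. Among its other genes, Prdm1, which drives the plasma cell program, had -0.21 (exact p = 0.0952), Sdc1, the surface marker CD138, -0.17 (exact p = 0.421, with 0.20 and -0.42 in the sets) and Irf4 0.05 (exact p = 0.460). The plasma cell receptor gene Tnfrsf17 was below the filter, at 0.522 to 2.12 and 0 to 1.62 FPKM, with MWA+2DG replicate 5 listed at 0. The smallest P of the list was that of Eaf2, at 7.37 ± 1.26 and 4.73 ± 0.545 FPKM with a log2 fold change of -0.54. That difference was -0.33 in replicates 1 and 2 and -0.67 in replicates 3 to 5. Its unadjusted limma P was 0.000631, its adjusted p 0.995 and its exact p 0.00794. The groups did not overlap, where 0.51% of all genes tested were lower without overlap.

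Of the class switch recombination genes 18 were tested and 0 were called in either direction, with a median of -0.07. Ung, which removes uracil from DNA, had a log2 fold change of -0.10 (exact p = 0.111). The smallest P of the list was that of Apex1, an endonuclease that cuts DNA where a base is missing, at 28.3 ± 5.87 FPKM under MWA+PBS and 23.7 ± 3.44 FPKM under MWA+2DG (log2 fold change -0.24, SE 0.137, exact p = 0.143). Germinal centre B cells are the activated B cells of the follicle. Of the 10 germinal centre genes tested, 7 were called lower by the unadjusted rule and 0 higher. Among all genes tested 1.87% were called lower and 0.952% higher. The median of the list was -0.48, and 0 of its genes had an adjusted p below 0.05. In replicates 1 and 2 alone, with 2 libraries per group, 0 were called, where 2.17% of all genes were called lower. The median there was still negative, at -0.21, so the count of 0 does not show that the difference was absent. In replicates 3 to 5 alone 7 were called lower, with a median of -0.63, where 2.89% of all genes were. The 11 genes of the list summed to 204 to 312 FPKM in the MWA+PBS group and to 192 to 213 FPKM in MWA+2DG replicates 1 to 4, and to 135 FPKM in MWA+2DG replicate 5, the library with the most adipose and epithelial transcript. Without that library 6 were called lower, with a median of -0.38, where 176 of all 13348 genes tested were. The smallest P was that of Rgs13, a regulator of G protein signaling, listed at 16.9, 24.8, 25.9, 27.9 and 23.1 FPKM in the MWA+PBS group and at 15.2, 18.0, 17.0, 16.0 and 9.21 FPKM in the MWA+2DG group. MWA+PBS replicate 1 lay within the MWA+2DG range, and the other 4 lay above it. The log2 fold change of Rgs13 was -0.63 (SE 0.179, unadjusted limma P = 0.00478, exact p = 0.0238). It was -0.30 in replicates 1 and 2 and -0.86 in replicates 3 to 5. Bcl6, the master regulator of that cell state, was not called, with -0.28 (SE 0.151, exact p = 0.143).

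**Figure D5:**
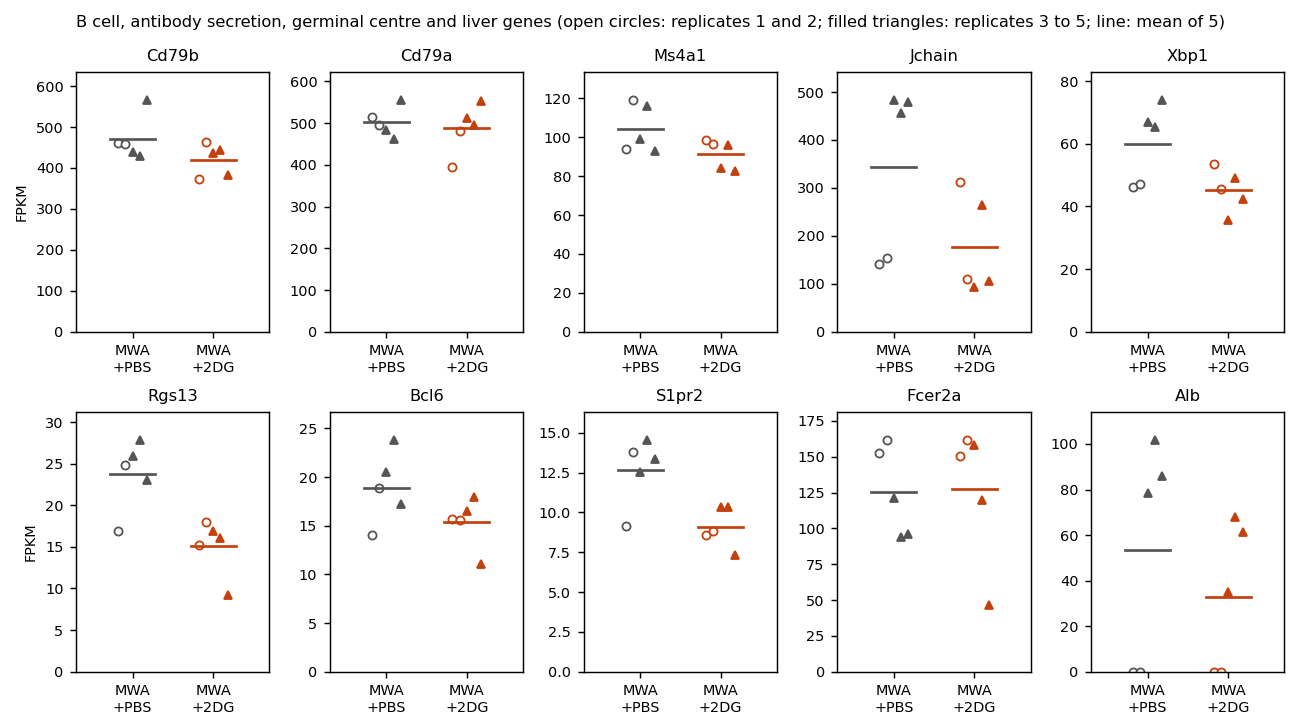
FPKM of B cell genes (Cd79b, Cd79a, Ms4a1), antibody secretion genes (Jchain, Xbp1), germinal centre genes (Rgs13, Bcl6, S1pr2), the IgE receptor gene Fcer2a and the liver gene Alb in each library. Jchain was highest in MWA+PBS replicates 3 to 5, at 457 to 484 FPKM, and Alb was near 0 in replicates 1 and 2 of both groups.

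Among the cytokines and helper signals that steer switching, Il4, which steers to IgG1 and IgE, was listed at 1.02 to 1.69 FPKM under MWA+PBS and 0.697 to 1.87 under MWA+2DG (log2 fold change -0.22, exact p = 0.198). Tgfb1 was at 29.0 ± 3.20 and 29.4 ± 4.72 FPKM (log2 fold change 0.01, exact p = 0.897), and Cd40lg, the T cell ligand that licenses B cells, at 3.42 ± 0.807 and 4.57 ± 1.21 FPKM (log2 fold change 0.33, exact p = 0.103). Il21 and Ifng were below the filter, at 0.386 to 0.924 FPKM and 0.188 to 4.02 FPKM over all libraries. Ifng was at 4.02 FPKM in MWA+2DG replicate 5 and 2.16 FPKM in MWA+PBS replicate 4, and at 0.188 to 0.579 FPKM in the others. Of the 18 genes of this list 12 were tested and 0 were called, with a median of 0.02. Of the 13 Fc receptor and antibody transport genes 10 were tested and 0 were called, with a median of -0.05. Among them the log2 fold change of Fcgr2b, the inhibitory IgG receptor, was 0.02 (exact p = 0.905), Fcer2a, the low-affinity IgE receptor, -0.07 (exact p = 0.897), Fcgrt, which protects IgG from breakdown, -0.03 (exact p = 0.817) and Trim21, an antibody receptor of the cytosol, 0.24 (exact p = 0.460). Pigr, which carries IgA across epithelium, was at 0.0785 to 1.402 FPKM.

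Markers of other cells were read beside these values. Of the 12 T cell genes 0 were called lower and 1 higher, Cd8a, where 0.952% of all genes tested were called higher. Cd8a was at 30.8 ± 5.69 and 37.3 ± 1.38 FPKM with a log2 fold change of 0.28 (unadjusted limma P = 0.0267, exact p = 0.0556). All 12 differences were positive, with a median of 0.18. Without MWA+2DG replicate 5 the count called higher was 6, where 222 of all 13348 genes were. Without MWA+PBS replicate 1 it was 5, where 199 of all 13351 genes were. It was 0 without any 1 of MWA+PBS replicates 2, 3 and 5 and MWA+2DG replicates 1 and 3. Beside these values, whether a changed mix of T and B cells had a part in the lower Ighm was not tested. The 6 adipose genes summed to 4.53 to 18.1 FPKM in the MWA+PBS group and 5.06 to 93.9 in the MWA+2DG group, where replicate 5 was the highest. The 6 red blood cell genes summed to 22.6 to 65.6 and 16.7 to 85.3 FPKM, and the 7 epithelial genes to 2.34 to 6.36 and 2.28 to 14.4 FPKM. Without MWA+2DG replicate 5, the log2 fold change of Ighm was -0.33.

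For 3 of the 10 genes the tested genes most like them over the 10 libraries were sought, outside the immunoglobulin loci and among 13112 genes, by Pearson's r of log2(FPKM + 1). These values describe libraries that share the groups and the sets above. Ighg2b was most like Xbp1 (r = 0.958), Pon3 and Txndc11. Ighm was most like 5830418P13Rik (r = 0.929), Gm4739 and Alyref, and Igha was most like Zbtb32 (r = 0.856), Eif2b1 and Rrad, where MWA+2DG replicate 4 was the highest library for Igha and Zbtb32 alike.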

How the data were processed

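The deposited files hold FPKM per gene, 1 table per mouse. Per the labels, libraries were stranded (dUTP), carried molecular identifiers and were sequenced in paired reads of 150 bases. The submitters' processing notes name cutadapt 1.9, UMI-tools, HISAT2 2.0.4, StringTie 1.3.4d and mm9. The study's methods name fastp in place of cutadapt, and the Ensembl identifiers are of a later annotation than mm9 usually carries, so the build behind the values is uncertain. The files give no coordinates, and those printed are from GENCODE M21 on GRCm38. The use of strand and of molecular identifiers in making the values is not stated in any source.

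Symbols were matched for 33541 of 33643 identifiers, and 57 symbols with several identifiers were summed, which left 33585 genes. The test across genes was limma 3.58.1 under R 4.3.3 (lmFit and eBayes, no covariate) on log2(FPKM + 1), and shares and ratios by exact permutation over the 252 regroupings of the libraries (Python 3.11.15, scipy 1.17.1), two-sided. The pseudocount of 1, the filter of a mean of 1 FPKM and log2 were chosen here, since the study states none of them. A value on this scale understates the change of low genes. In a trial on artificial data, with 200 of the 13334 genes changed by 1 log2 unit, limma recovered 176, with 10 false calls. Recovery of smaller differences, such as the -0.33 of Ighm, was not tested. The named genes are the 10 constant region genes, listed genes named for their role, the gene of smallest P in each list used for a result, and the 3 most alike genes of Ighm, Igha and Ighg2b. The 10 genes, the gene lists and the replicate sets were chosen with earlier results of these data known. The smallest P in the lists of liver, adipose, epithelial and red blood cell genes were those of Serpina1a, Adipoq, Krt18 and Hbb-bs. No source says whether the samples of a group were housed or processed apart. The main fit and the permutations held no term for the replicate sets. Their p-values thus take the differences between the sets together with the spread between mice and libraries. No 2 libraries held equal values beyond a share of 0.000178 of genes. Some genes of the planned lists are not reported here, and the B cell reference was the mean of Ms4a1, Cd79a and Cd79b. Alternatives were another pseudocount, filter, scaling, variance model, reference or denominator, a replicate block, the replicate set as a term, and leaving out each library.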

Additional observations from a re-analysis of the deposited data

Results flagged for a closer look

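In 62 checks of groups of 5 libraries, 4 found a library far from the other 4, where chance gives about 1 in 20, or 3.1. Ighm in MWA+PBS replicate 5 was 1164 FPKM, where the other 4 held 991 to 1024. Igha in MWA+2DG replicate 4 was 16.5 FPKM, where the others held 1.93 to 4.27, and without that library the log2 fold change of Igha was -0.07. The Ighg2b share of the heavy chain in MWA+PBS replicate 1 was 2.19%, where the others held 4.96% to 6.07%. The Igha share in the same library was 0.269%, where the others held 0.0457% to 0.101%.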

How the results depend on the processing

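Of the alternatives tried, 497 left a value on its side of the threshold and in its direction, 12 made a call, 20 lost one, 23 turned a sign and 7 moved a count. Ighm was called lower in all of them, and Ighg2b in all but replicates 1 and 2 alone, where it was -0.08. In that set, chosen after seeing the data, the sign turned for Igha (-0.0855), Ighd (-0.18), Ighg1 (0.97), Ighg2c (0.93), Ighg3 (0.31) and Igkc (0.34), and in replicates 3 to 5 alone 7 constant region genes were called in place of 3. Ighg3 lost its call without a filter, after rescaling without immunoglobulin genes and after median ratio scaling (limma P values of 0.0632, 0.0506 and 0.0509). The sign also turned for the Ighe share as a log2 ratio (0.12) and for Iglc2 against the whole B cell list (-0.0124). The cause was not tested.

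Leaving out 1 library at a time gave 2 to 4 called genes, 1 to 2 shares and 1 to 3 relative levels with p below 0.05, and an Ighd to Ighm ratio of 0.36 to 0.57. Signs turned within -0.0674 to 0.58 for Igha, and, relative to B cell genes, -0.54 to 0.0425 for Ighe and -0.0488 to 0.10 for Iglc2. The Ighg1 to Ighg2c ratio spanned -0.26 to 0.17. Shares spanned -0.539 to 0.51 percentage points for Ighe, -0.316 to 7.66 for Ighm, -9.94 to 1.09 for Ighg1 and -0.744 to 0.0565 for Ighg2c. For the gene lists, also checked after seeing the data, those of class switch recombination, switch signals, Fc receptors, adipose tissue and red blood cells went from 0 called genes to at most 2 without 1 library, and that of B cells stayed at 0.

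The replicate numbers did not pair the libraries. Same-numbered libraries correlated at 0.331, 0.501, 0.110, 0.0334 and 0.151, and not every library correlated best with its own number. With the replicate block 285 genes were called lower and 164 higher, against 249 and 127, and 0 shares and 0 relative levels reached p below 0.05, since 5 pairs cannot go below an exact p of 0.0625, the value of the Ighd to Ighm ratio of 0.48. Rescaling each library to a total of 1000000 turned the split to 159 lower and 328 higher, with a median shift of 0.07. Other heavy chain constant region genes were not found in the files, so that denominator was not run. FPKM gives no depth, so which low values are noise cannot be said.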
